A study of Mus musculus with 28 samples.

Results

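The 10 genes described here are 5 aquaporins (Aqp1, Aqp3, Aqp4, Aqp5 and Aqp11) and 5 members of the carbonic anhydrase family (Car2, Car8, Car9, Car12 and Car13). They were chosen by symbol, with earlier results of these data known, from the 49492 genes of a count table. All 10 passed the count filter that left 15812 genes to be tested. Aquaporins are membrane channels that let water, and in the case of the aquaglyceroporins also glycerol, cross cell membranes along osmotic gradients. Carbonic anhydrases interconvert carbon dioxide and water with bicarbonate and protons. In the corpus, where the stomach makes its acid, this reaction supplies protons to parietal cells and bicarbonate to the surface mucous layer.

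RNA was sequenced from epithelial cells scraped by hand from the corpus of villin-PPARD transgenic mice and of wild-type littermates, at 10, 25 and 55 weeks of age. PPARD is a nuclear receptor activated by fatty acids, and the villin promoter that drives the transgene is best known for its activity in intestinal epithelium. The libraries were made from poly-A RNA with a kit that does not mark strand, with 5 wild-type and 5 transgenic libraries of 10 weeks, 4 of each genotype of 25 weeks, and 5 of each of 55 weeks. The labels do not state that each library came from a separate mouse, so p-values measure the spread between libraries. The comparison asked is that of genotype at each age, and with it whether the genotype difference moved with age.

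Total counts per library lay between 10982888 and 30891108. Levels are given as CPM, counts scaled to 1000000 per library with TMM factors. Ppard ranged from 65.7 to 83.6 CPM in the wild-type libraries of 10 weeks and from 101 to 125 CPM in the transgenic ones. The ranges of the 2 genotypes overlapped at 25 and 55 weeks. It was called higher in transgenic libraries at each of the 3 ages (log2 difference 0.56, 0.31 and 0.23, edgeR adjusted p = 2.55e-05, 0.0183 and 0.0307). The column names of the table put the libraries in 2 groups, the first with the 25-week libraries and, of 10 weeks, replicates 1, 2 and 3. Wild-type replicate 3 of 25 weeks, whose column name marks it as a replacement, is in neither group. The second has the 55-week libraries and, of 10 weeks, replicates 4 and 5. The scrapings hold more than 1 cell type, so fewer cells of a type and less RNA per cell cannot be told apart. Over 8 parietal cell markers (such as Atp4a, the proton pump subunit) the summed level ranged from 15964 to 18514 CPM in wild type at 10 weeks, from 6600 to 10810 in wild type at 55 weeks and from 468 to 797 in transgenic libraries at 55 weeks. Mitochondrially encoded RNA made up 6.85% to 20.4% of counts in wild type and 2.01% to 5.24% in transgenic libraries at 55 weeks. In transgenic replicates 2 and 3 at 55 weeks, the most alike pair of that group (chi-square per degree of freedom 14.3), the summed level of 5 pit cell markers was 72635 and 70146 CPM against 35853 to 52995 in the other 3 libraries. Results that rest on this pair are therefore given with and without it. Wild-type replicates 2 and 3 of 10 weeks were the most alike of all replicate pairs (4.12, against 14.3 to 157 for the others). They differed by more than sampling noise, which does not show that they came from separate mice, and were counted as 2 libraries. With either of them left out, the genotype calls of the 10 genes at 10 weeks, given below, stayed the same. Scaling by library size alone, in place of TMM factors, moved the median log2 genotype difference of all genes at 55 weeks from 0.026 to 0.43 and the calls from 5009 higher and 4371 lower to 8645 higher and 2310 lower.

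Per length of merged exons, Car2, the abundant cytosolic carbonic anhydrase of surface and parietal cells, had the highest level of the 10 genes in each of the 6 groups. Merged exons can be longer than the transcript made, which would lower the value of a gene. The mean of Car2 was 614 ± 97.6 CPM per kilobase of exon (RPKM; SD, n = 5) in wild type at 10 weeks, which was 67.6% of the sum over the 10 genes. Aqp3, a basolateral aquaglyceroporin, came next with 205 ± 41.8 RPKM, then Car9 with 60.9 ± 7.19 and Car13 with 15.3 ± 3.23. In wild type at 10 weeks the libraries of these 4 genes did not overlap with those of the gene next in order. The other 6 genes lay between 0.297 RPKM (Aqp1) and 5.99 RPKM (Aqp4) in that group, and the libraries of Aqp11 and Car8, of Car8 and Aqp5, and of Car12 and Aqp1 overlapped. The order of the first 4 genes was the same in the 6 groups, but Car9 (17.4 ± 1.42 RPKM) and Car13 (16.6 ± 2.79) overlapped in transgenic libraries at 55 weeks. Aqp1 was last in both genotypes at 10 and 25 weeks and, in transgenic libraries at 55 weeks, came after Car13 with 2.09 ± 0.497 RPKM, where it overlapped with Car8.

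**Figure D1:**
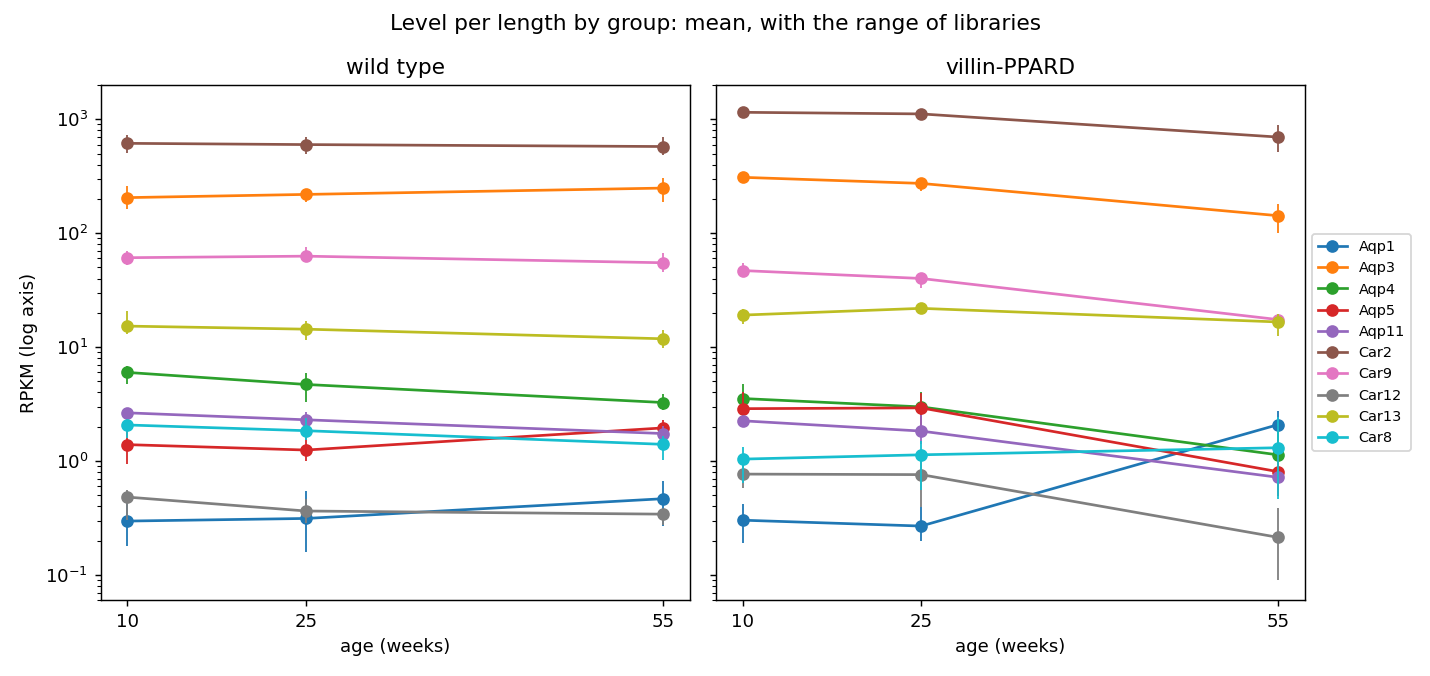
Level per length of merged exons (RPKM, log axis) of the 10 genes against age in weeks, wild type and villin-PPARD in separate panels. Points are group means and bars span the libraries. Car2, Aqp3, Car9 and Car13 lead in both panels, and Aqp1 climbs to 2.09 RPKM in transgenic libraries at 55 weeks.

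At 10 weeks 6 of the 10 genes differed between genotypes, where 34.0% of all genes tested did (edgeR quasi-likelihood test, Benjamini-Hochberg adjusted p under 0.05 over all 15812 genes). Aqp3, Aqp5 and Car2 were higher in transgenic libraries, and Aqp4, Car9 and Car8 were lower, while 2823 of all genes were higher and 2557 lower. Within the first library group, a part of the same libraries, these 6 were also called, beside 3672 of all 15812 genes. Within the second, with 2 libraries a genotype, Car2 was (0.82, edgeR adjusted p = 0.0325), beside 1528 of all genes. In the second group Aqp3 (0.32), Aqp4 (−0.50), Aqp5 (1.25), Car9 (−0.27) and Car8 (−0.75) kept their direction without passing. At 25 weeks 5 of 10 differed, against 39.6% of all genes, with Aqp5, Car2, Car12 and Car13 higher and Car9 lower (3318 and 2944 of all genes). At 55 weeks 7 of 10 differed, against 59.3% of all genes, with Aqp1 and Car13 higher and Aqp3, Aqp4, Aqp5, Aqp11 and Car9 lower (5009 and 4371 of all genes). The median absolute log2 difference of the 10 genes was 0.64, 0.65 and 1.04 at the 3 ages, beside 0.31, 0.38 and 0.48 over all genes. Wild-type and transgenic libraries did not overlap for 5, 5 and 6 of the 10 genes, beside 25.6%, 27.3% and 43.3% of all genes. Because the 10 genes were chosen with earlier results of these data known, these comparisons with all genes say nothing about their families. The test of the change itself called 7 of the 10 genes between 10 and 55 weeks (36.4% of all genes): the difference moved up for Aqp1 and down for Aqp3, Aqp5, Aqp11, Car2, Car9 and Car12 (2905 and 2843 of all genes). Within the second library group alone 3378 of all genes were called. Aqp1, Aqp3, Aqp5, Aqp11 and Car9 were among them, and Car2 (−0.54) and Car12 (−1.37) were not (edgeR adjusted p = 0.194 and 0.0798). The same 7 genes were called between 25 and 55 weeks (28.9% of all genes, 2255 up and 2315 down). The libraries of 25 and 55 weeks share no library group, so this change could not be taken within a library group. The comparisons of 10 and 25 weeks with 55 weeks share the 55-week libraries. Between 10 and 25 weeks edgeR called 0 of the 10 genes (0.00632% of all genes), 0 were called by DESeq2, and 0 had an unadjusted p under 0.05.

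**Figure D2:**
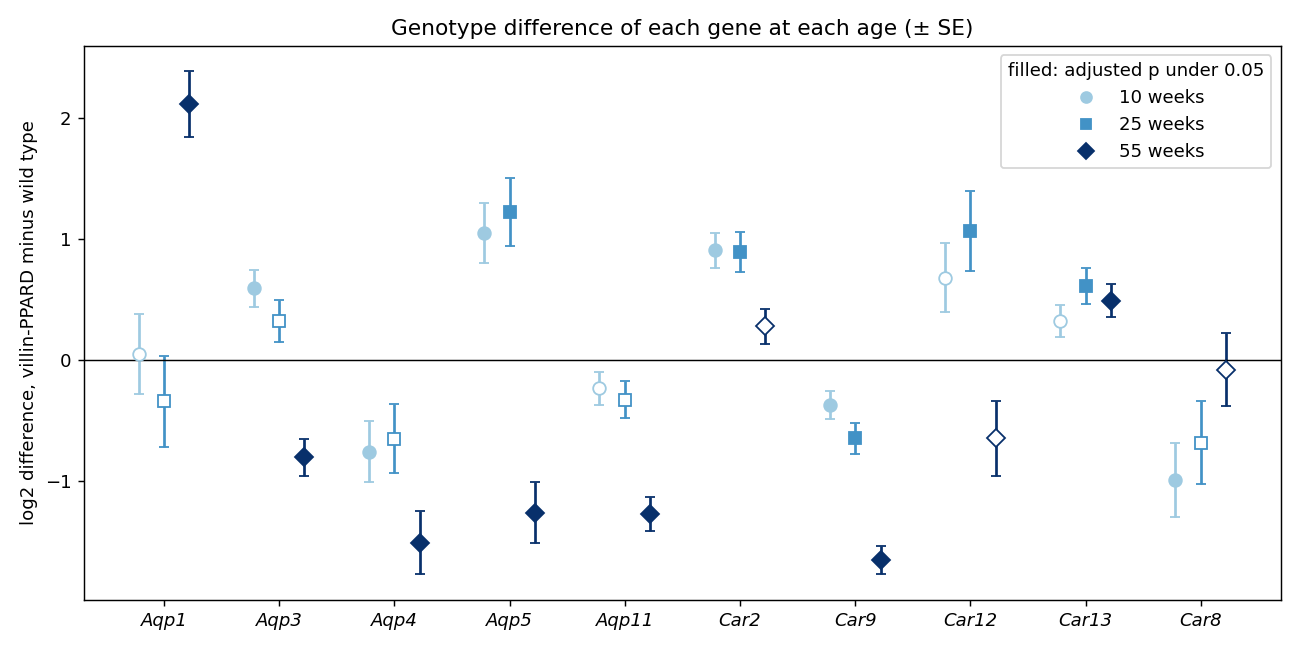
Log2 difference between villin-PPARD and wild type (vertical axis) for each of the 10 genes at 10, 25 and 55 weeks; bars are standard errors and filled points have an adjusted p under 0.05. Aqp3 and Aqp5 lie above 0 at 10 weeks and below 0 at 55 weeks, and Car9 lies below 0 at the 3 ages.

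Aqp5 (chromosome 15, 99590782 to 99594829, plus strand, GRCm38), a water channel of secretory glands that marks pyloric-type glands and the spasmolytic polypeptide-expressing metaplasia (SPEM) of the corpus, was higher in transgenic libraries at 10 and 25 weeks and lower at 55 weeks. The 5 wild-type libraries of 10 weeks had 2.47, 4.88, 4.03, 3.28 and 3.44 CPM and the transgenic ones 6.24, 6.90, 8.20, 5.71 and 10.4 CPM. The 4 wild-type libraries of 25 weeks had 4.65, 2.60, 3.14 and 2.59 CPM and the transgenic ones 8.79, 10.3, 6.24 and 5.14 CPM. At both ages each transgenic library was above each wild-type library, by 1.05 ± 0.24 (log2, SE; edgeR adjusted p = 0.0015) and 1.22 ± 0.28 (edgeR adjusted p = 0.00107). At 55 weeks the wild-type libraries had 3.90, 4.58, 5.97, 5.57 and 5.35 CPM and the transgenic ones 3.65, 2.41, 1.50, 1.64 and 1.28 CPM. Here each transgenic library was below each wild-type library, by −1.27 ± 0.25 (edgeR adjusted p = 8.99e-05). From 10 to 55 weeks the level within transgenic mice changed by −1.83 ± 0.25 (edgeR adjusted p = 3.21e-07), while wild type differed by 0.48 ± 0.25 (edgeR adjusted p = 0.204). The genotype difference changed by −2.31 ± 0.35 between 10 and 55 weeks (edgeR adjusted p = 5.64e-06).

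Beside Aqp5, 3 of 7 mucous neck and SPEM markers were higher and 0 lower in transgenic libraries at 10 weeks, and 5 were higher and 1 lower at 55 weeks. Their summed level at 55 weeks was 4991 to 7015 CPM in wild type against 18274 to 26770 CPM in transgenic libraries. Clu, a secreted chaperone raised in this metaplasia, had a mean of 2886 ± 298 CPM (SD, n = 5) in wild type at that age and of 17486 ± 3308 (n = 5) in transgenic libraries. It made up most of that summed level, which therefore says little about the other markers of the list. Whether the cell types of the scrapings account for the order of the Aqp5 levels was not tested.

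Aqp3 (chromosome 4, 41092722 to 41098183, minus strand) turned in the same way, higher in transgenic libraries at 10 weeks and lower at 55 weeks. The wild-type libraries of 10 weeks had 401, 299, 296, 407 and 473 CPM and the transgenic ones 615, 549, 565, 574 and 524 CPM. The 5 transgenic libraries were above the 5 wild-type libraries, and the fitted level was 1.51-fold higher (log2 difference 0.59 ± 0.15, edgeR adjusted p = 0.0036). At 25 weeks wild-type libraries spanned 342 to 442 CPM and transgenic ones 431 to 555 CPM, which overlap, and the difference of 0.32 ± 0.17 did not pass the test (edgeR adjusted p = 0.137). At 55 weeks the wild-type libraries had 556, 388, 476, 511 and 345 CPM and the transgenic ones 184, 333, 330.2, 204 and 250.4 CPM. The transgenic libraries were now below those of wild type, 1.75-fold by the fit (−0.81 ± 0.15, edgeR adjusted p = 4.68e-05). Without transgenic replicates 2 and 3, which were the highest of their group, the difference was −1.10 ± 0.16. The genotype difference changed by −1.40 ± 0.22 between 10 and 55 weeks (edgeR adjusted p = 7.13e-06).

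Aqp1, the channel of red cells and endothelium, was at a low level in 5 of the 6 groups and was higher in transgenic libraries at 55 weeks. Its counts were 4 to 39 per library outside that group and 83 to 256 within it. The gene lies on chromosome 6, 55336432 to 55348555, on the plus strand (GRCm38). At 55 weeks the wild-type libraries had 1.50, 1.11, 0.713, 1.77 and 1.05 CPM and the transgenic ones 7.29, 3.77, 5.77, 5.77 and 4.81 CPM. Each transgenic library was above each wild-type library, and the fitted level was 4.33-fold higher (2.11 ± 0.27, edgeR adjusted p = 1.09e-07). At 10 weeks the difference was 0.048 ± 0.33 and at 25 weeks −0.34 ± 0.38 (0.065 within the first library group, which is without wild-type replicate 3), and the libraries overlapped at both ages. Within transgenic mice the level rose 6.83-fold from 10 to 55 weeks (2.77 ± 0.28, edgeR adjusted p = 1.72e-09). The genotype difference changed by 2.07 ± 0.43 between 10 and 55 weeks (edgeR adjusted p = 0.000311).

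Of 10 endothelial markers 3 were higher and 3 lower at 55 weeks, and their summed level was 63.4 to 97.6 CPM in wild type against 69.8 to 84.2 CPM in transgenic libraries, ranges that overlap. Vwf, the von Willebrand factor of endothelium, was higher (1.16 ± 0.33), as was Tek, the angiopoietin receptor (1.80 ± 0.38), and Flt1, a VEGF receptor, was lower (−0.97 ± 0.30). Tek, with a mean of 17.6 ± 11.3 CPM in transgenic libraries at 55 weeks, was higher also at 10 weeks (3.92 ± 0.40) and 25 weeks (4.36 ± 0.47). It was the 1 endothelial marker higher at each of those ages, when 0 and 4 were lower. Of 4 tested erythroid markers 4 were lower at 55 weeks, with a median of −2.64, and the summed level of the 6 listed was 41.9 to 156 CPM in wild type against 9.93 to 22.6 CPM in transgenic libraries. Of 8 tested squamous markers 4 were higher and 1, the keratin gene Krt13, was lower (−0.99 ± 0.26). The summed level of the 10 listed was 7.61 to 19.3 CPM in wild type against 51.5 to 90.4 CPM in transgenic libraries, of which Ivl, a cornified envelope protein, made up a mean of 53.1 ± 20.4 CPM (SD, n = 5). Of 7 tested leukocyte markers 6 were higher and 0 lower, and the sum of the 8 listed was 29.6 to 32.5 CPM and 46.1 to 77.3 CPM. The part of these markers in the level of Aqp1 was not tested.

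**Figure D3:**
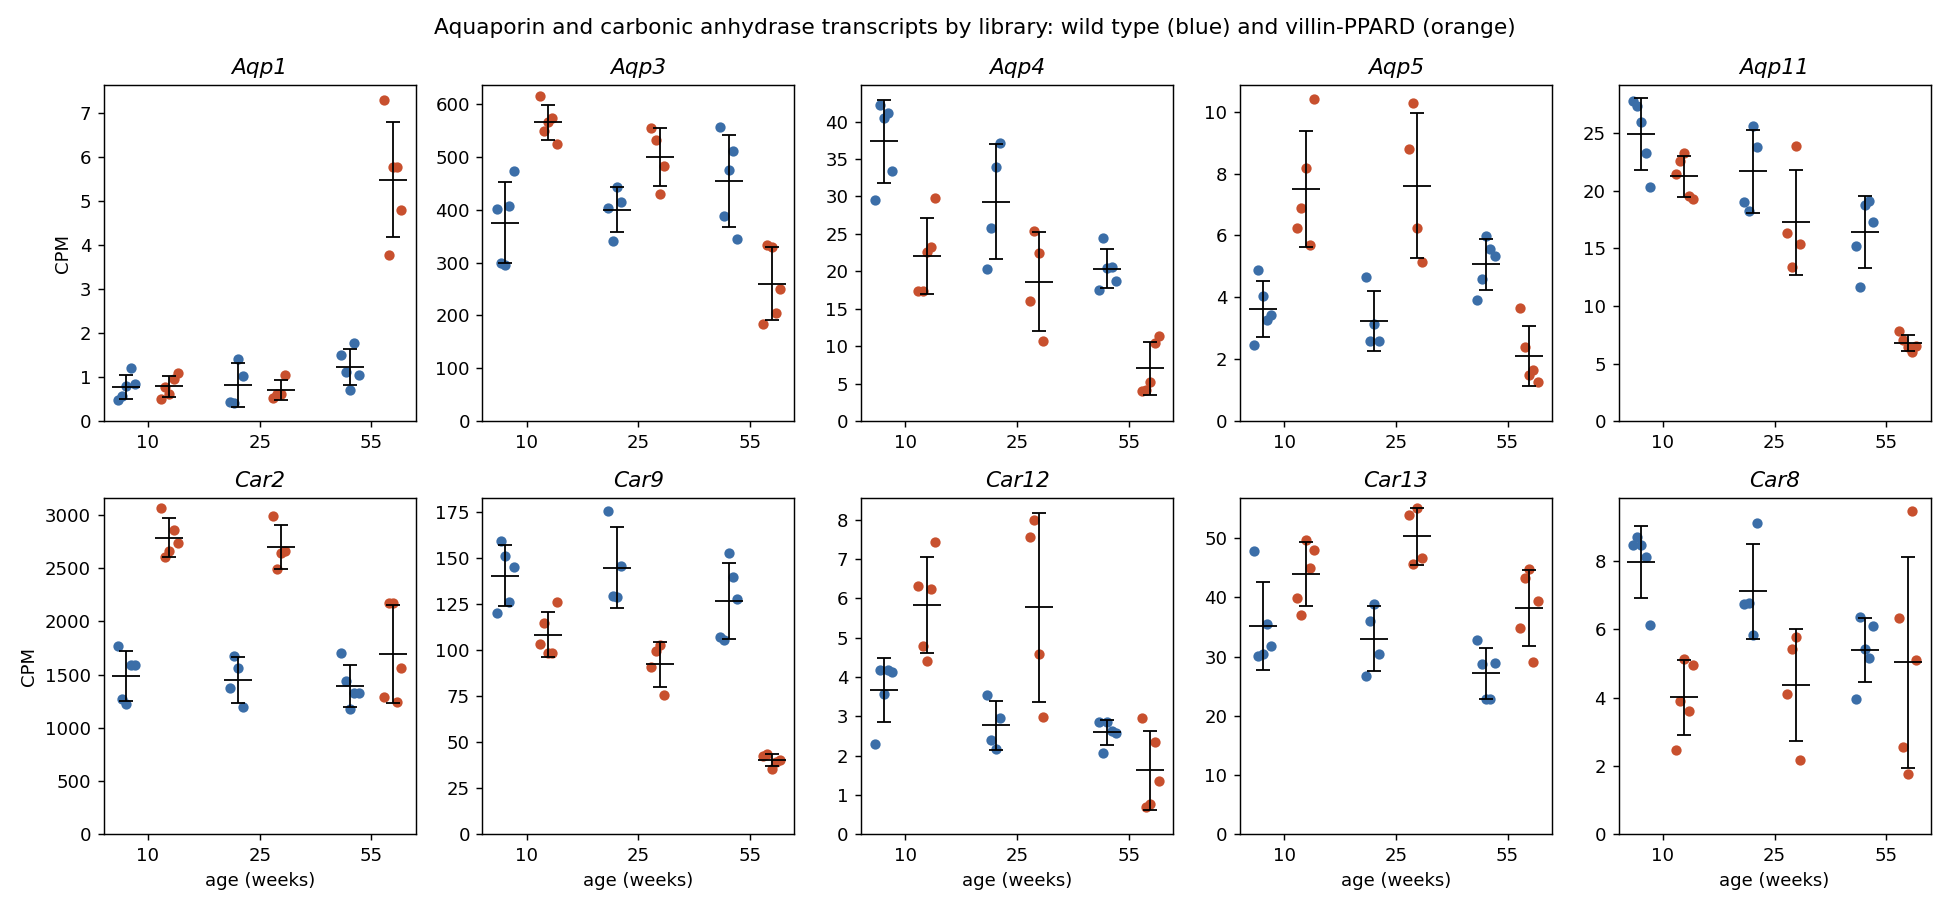
Normalized level (CPM) of each of the 10 genes in each of the 28 libraries, by age in weeks (horizontal axis), wild type in blue and villin-PPARD in orange; bars are group means and whiskers the SD. Aqp1 reaches 3.77 to 7.29 CPM in the 5 transgenic libraries of 55 weeks, and Car9 falls to 35.2 to 43.5 CPM there.

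The stretch just before the transcription start is shown for Aqp3 and Car12, of the genes whose genotype difference moved down with age, and for Aqp1, whose difference moved up. Each is the 100 bases before the start in RefSeq (GRCm38.p6), from which positions are counted and which for some genes is not the GENCODE start given with the gene, with matches to a TATA box (TATAAA) or a GC box (GGGCGG, here read on the other strand as CCGCCC) in capitals.
Aqp3, chr4:41098184-41098283, minus strand: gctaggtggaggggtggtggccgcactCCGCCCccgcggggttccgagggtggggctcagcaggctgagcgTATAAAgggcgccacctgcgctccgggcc
Car12, chr9:66713586-66713685, plus strand: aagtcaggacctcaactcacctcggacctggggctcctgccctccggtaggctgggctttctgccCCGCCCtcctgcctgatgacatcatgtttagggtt
Aqp1, chr6:55336199-55336298, plus strand: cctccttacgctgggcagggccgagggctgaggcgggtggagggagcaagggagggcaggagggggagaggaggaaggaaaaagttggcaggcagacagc
The Aqp3 stretch holds a TATA box at −29 to −24 and a GC box at −73 to −68, the Car12 stretch holds a GC box at −35 to −30, and the 100 bases of Aqp1 hold neither, but a GC box lies further from its start, at −190 to −185. Among 27025 promoter windows of 250 bases before the start, 3504 hold TATAAA and 8901 (32.9%) hold GGGCGG on either strand. Windows of 6 of the 10 genes were searched. The GC box was in those of Aqp1, Aqp3, Aqp5 and Car12 and the TATA box in that of Aqp3, while those of Aqp11 and Car9, whose differences also moved down, held neither. These 6 were searched also for AGGTCA, the nuclear receptor half-site, which 13.8% of windows hold. Aqp11 had it, at −230 to −225 on the minus strand. The direct repeat that PPAR binds with RXR, searched as AGGTCA repeated after 1 base of any kind, was in 0 of the 6 and in 0.0370% of all windows.

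Aqp4, a basolateral water channel known from parietal and chief cells of the gland base, was lower in transgenic libraries at 10 and 55 weeks and fell with age in both genotypes. The wild-type libraries of 10 weeks had 29.6, 42.2, 40.5, 41.1 and 33.4 CPM and the transgenic ones 17.4, 17.3, 22.5, 23.2 and 29.8 CPM. The 2 groups overlapped by 1 transgenic library, replicate 5, and the difference was −0.76 ± 0.25 (edgeR adjusted p = 0.0203). The call was lost without transgenic replicate 1 (−0.69, edgeR adjusted p = 0.0572) or 2 (−0.68, edgeR adjusted p = 0.0522), and with no count filter (−0.72, edgeR adjusted p = 0.0753). At 25 weeks the libraries overlapped and the difference was −0.65 ± 0.28 (edgeR adjusted p = 0.0684), which passed without wild-type replicate 1 (−0.79, edgeR adjusted p = 0.0404), transgenic replicate 2 (−0.83, edgeR adjusted p = 0.0382) or the 55-week transgenic replicate 5 (−0.68, edgeR adjusted p = 0.0414). At 55 weeks the wild-type libraries had 17.6, 24.4, 20.4, 20.6 and 18.7 CPM and the transgenic ones 3.99, 4.23, 5.27, 10.4 and 11.4 CPM. The transgenic libraries were below those of wild type, 2.85-fold by the fit (−1.51 ± 0.26, edgeR adjusted p = 2.02e-05). The change of the genotype difference from 10 to 55 weeks, −0.75 ± 0.36, did not pass (edgeR adjusted p = 0.105) but did without transgenic replicate 4 (−0.94, edgeR adjusted p = 0.0456) or 5 (−0.99, edgeR adjusted p = 0.0301), the 2 highest of their group.

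Within wild type, Aqp4 and Aqp11 were the 2 of the 10 genes that differed between 55 and 10 weeks (12.7% of all genes, 1017 higher and 990 lower), and for both the libraries of the 2 ages did not overlap (11.4% of all genes). Aqp4 fell by 0.88 ± 0.25 on the log2 scale (edgeR adjusted p = 0.0225), a call lost without the 55-week wild-type replicate 1 (−0.83, edgeR adjusted p = 0.0522) or with no count filter (−0.90, edgeR adjusted p = 0.0591). Aqp11 fell by 0.61 ± 0.14 (edgeR adjusted p = 0.00485). Within the second library group the 2 values were −0.88 for Aqp4 and −0.41 for Aqp11 (edgeR adjusted p = 0.185 and 0.242), so neither decrease was called there, nor with a term for library group (−1.03 and −0.44, edgeR adjusted p = 0.0529 and 0.093). Between 25 and 10 weeks, 0 of the 10 genes differed within wild type (0.0126% of all genes) and 0 within transgenic mice (2.81%) by edgeR and by DESeq2, and 0 of the 10 had an unadjusted p under 0.05 in either.

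Aqp11 (chromosome 7, 97724006 to 97738289, minus strand), a channel of intracellular membranes, separated the genotypes at 55 weeks. The wild-type libraries had 15.2, 11.6, 18.8, 19.1 and 17.3 CPM and the transgenic ones 7.86, 7.05, 6.43, 6.03 and 6.51 CPM. The transgenic libraries were below those of wild type and spread less, and the fitted level was 2.42-fold lower (−1.28 ± 0.14, edgeR adjusted p = 8.23e-09). At 10 weeks the means were 24.9 ± 3.13 and 21.2 ± 1.80 CPM (SD, n = 5 and 5), at 25 weeks 21.7 ± 3.61 and 17.3 ± 4.58 CPM (n = 4 and 4), and the libraries overlapped at both ages. The 25-week difference of −0.33 ± 0.15 passed without transgenic replicate 3 (−0.56, edgeR adjusted p = 0.00364), the highest of its group at 23.9 CPM. Between 10 and 55 weeks its genotype difference changed by −1.04 ± 0.20 (edgeR adjusted p = 0.000108).

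All 8 parietal cell markers were tested, and 7 were lower in transgenic libraries at each age, with a median of −0.64, −0.76 and −4.59 at 10, 25 and 55 weeks. The mean of Atp4a at 55 weeks was 4874 ± 1196 CPM in wild type against 185 ± 89.4 CPM in transgenic libraries (SD, n = 5 and 5). Of 7 chief cell markers 3, 4 and 6 were lower at the 3 ages and 1, 1 and 0 higher, and their summed level at 55 weeks was 25931 to 98992 CPM in wild type against 343 to 1384 CPM in transgenic libraries. Aqp4 and Aqp11 moved in the same direction at 55 weeks, and the part of the marker changes in theirs was not tested.

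Car2 (chromosome 3, 14886273 to 14900770, plus strand) was higher in transgenic libraries at 10 and 25 weeks, while the parietal markers were lower. The wild-type libraries of 10 weeks had 1772, 1266, 1219, 1593 and 1589 CPM and the transgenic ones 3065, 2605, 2661, 2862 and 2739 CPM. Those of 25 weeks had 1370.3, 1677, 1564 and 1193 CPM and the transgenic ones 2989, 2496, 2645 and 2657 CPM. At both ages the transgenic libraries lay above those of wild type, 1.87-fold (0.91 ± 0.15, edgeR adjusted p = 2.55e-05) and 1.86-fold (0.89 ± 0.16, edgeR adjusted p = 0.000111). By 55 weeks the wild-type libraries had 1706, 1436, 1177, 1326 and 1331 CPM and the transgenic ones 1288, 2175, 2175, 1243 and 1563 CPM. Only transgenic replicates 2 and 3 lay above the wild-type range, and the difference of 0.28 ± 0.15 did not pass (edgeR adjusted p = 0.106).

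Without replicates 2 and 3 the Car2 difference at 55 weeks was −0.034 ± 0.14, of the opposite sign, and with scaling by library size alone it was 0.66 and passed (edgeR adjusted p = 6.63e-05). It also passed without wild-type replicate 1 (0.36, edgeR adjusted p = 0.0445), transgenic replicate 1 (0.36, edgeR adjusted p = 0.0389) or transgenic replicate 4 (0.37, edgeR adjusted p = 0.0337). Within transgenic mice Car2 fell 1.65-fold from 10 to 55 weeks (−0.72 ± 0.15, edgeR adjusted p = 0.000125), while wild type differed by −0.093 ± 0.15. The change of the genotype difference was −0.63 ± 0.21 from 10 to 55 weeks (edgeR adjusted p = 0.0174) and −0.62 ± 0.22 from 25 to 55 weeks (edgeR adjusted p = 0.0336). The second of these was lost when any of 7 libraries was left out (25-week wild-type replicates 1 and 4, 25-week transgenic replicate 1, 55-week wild-type replicate 1, and 55-week transgenic replicates 1, 4 and 5; −0.59 to −0.53), and both were lost with library size alone (−0.29 and −0.40). Without 10-week replicates 4 and 5 neither passed (−0.66 and −0.61, edgeR adjusted p = 0.0509 and 0.0537), and without 55-week transgenic replicates 2 and 3 both did (−0.95 and −0.93).

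Car13 (chromosome 3, 14641727 to 14663002, plus strand), the other cytosolic enzyme of the set, was higher in transgenic libraries at 25 and 55 weeks. At 25 weeks wild-type libraries ranged from 26.7 to 38.9 CPM and transgenic ones from 45.6 to 55.0 CPM. These ranges do not overlap, and the difference was 0.61 ± 0.15 (edgeR adjusted p = 0.00224). At 55 weeks the ranges were 22.8 to 32.7 CPM and 29.0 to 44.7 CPM, which overlap, with a difference of 0.49 ± 0.14 (edgeR adjusted p = 0.00283). Transgenic replicates 2 and 3 were again the highest of their group, at 43.2 and 44.7 CPM, and without them the difference was 0.34 ± 0.15 and did not pass (edgeR adjusted p = 0.0615). At 10 weeks the difference was 0.32 ± 0.13 (edgeR adjusted p = 0.0661), and it passed without wild-type replicate 1 (0.46, edgeR adjusted p = 0.00752), transgenic replicate 2 (0.38, edgeR adjusted p = 0.0426) or the 55-week transgenic replicate 4 (0.33, edgeR adjusted p = 0.0468). Car13 was the gene of the 10 with the smallest span over the 6 group means, 0.89 on the log2 scale.

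Car9 (chromosome 4, 43506966 to 43513729, plus strand), a membrane enzyme with its catalytic site outside the cell that is abundant in gastric surface epithelium and induced by hypoxia elsewhere, was lower in transgenic libraries at the 3 ages. Wild-type libraries of 10 weeks had 120.1, 159, 151, 126 and 145 CPM and the transgenic ones 103, 115, 98.4, 98.4 and 126 CPM. Transgenic replicate 5 lay among the wild-type libraries, and the difference was −0.37 ± 0.11 (edgeR adjusted p = 0.0116). Wild-type libraries of 25 weeks had 176, 129, 129 and 146 CPM and the transgenic ones 90.7, 99.6, 103 and 75.7 CPM. Here the transgenic libraries were below those of wild type, by −0.65 ± 0.13 (edgeR adjusted p = 0.000227). Wild-type libraries of 55 weeks had 107, 106, 153, 139.9 and 128 CPM and the transgenic ones 42.6, 43.5, 35.2, 39.1 and 40.5 CPM. The gap between the groups was widest at this age, 3.15-fold by the fit (−1.66 ± 0.12, edgeR adjusted p = 5.99e-13), and the transgenic libraries differed little among themselves. The genotype difference changed by −1.28 ± 0.16 between 10 and 55 weeks (edgeR adjusted p = 2.73e-07). Reads of Car9 and of Gm12454, an antisense gene that shares 214 exonic bases with it in GENCODE M21, cannot be told apart without strand.

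Of 18 other hypoxia-induced genes, 4, 2 and 4 were higher at the 3 ages and 6, 7 and 6 lower, with medians of −0.16, −0.088 and −0.075. At 55 weeks Hk2, a hexokinase, was higher by 3.69 ± 0.19, and P4ha2, a prolyl hydroxylase of collagen, was lower (−1.92 ± 0.15). The list held genes that moved in both directions. Of 5 pit cell markers, which label the surface cells where Car9 protein is known to be abundant, 1 was higher at 10 weeks, 1 was lower at 25 weeks, and at 55 weeks none was higher and 5 were lower. Their summed level was 149957 to 203141 CPM in wild type against 35853 to 72635 CPM in transgenic libraries at 55 weeks. Within that transgenic group the pit marker sum was highest in replicates 2 and 3, where Car9 was 43.5 and 35.2 CPM, the highest and lowest values of the group. The part of the pit cell markers and of the hypoxia-induced genes in the level of Car9 was not tested.

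The core of the hypoxia response element (ACGTG) is printed for the 2 genes of the 6 whose windows hold it, Car9 and Aqp5, with matches to it, to the E-box CACGTG that contains it and to the GC box in capitals. In Car9 it lies on the minus strand and so reads CACGT, at −18 to −14. The E-box of Aqp5 lies at −87 to −82, and a further ACGTG of Aqp5, not printed, at −175 to −171 on the minus strand.
Car9, chr4:43506995-43507024, plus strand: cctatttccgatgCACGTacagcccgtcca
Aqp5, chr15:99590929-99590958, plus strand: tgccgcgtgggtCACGTGgcccGGGCGGgt
Both stretches lie before the RefSeq start but inside the gene as GENCODE M21 draws it. Of the 27025 windows, 16.6% hold ACGTG and 6.05% hold CACGTG on either strand. The 2 genes differ in direction at 10 and 25 weeks, when Car9 was lower and Aqp5 higher in transgenic libraries. At 55 weeks both were lower (−1.66 and −1.27). The part of these matches in the levels was not tested.

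Car12 (chromosome 9, 66713686 to 66766845, plus strand), a membrane enzyme related to Car9 and likewise known as hypoxia-induced, was higher in transgenic libraries at 25 weeks. Its wild-type libraries of 25 weeks had 3.55, 2.40, 2.16 and 2.96 CPM and the transgenic ones 7.55, 7.99, 4.58 and 2.98 CPM. Transgenic replicate 4 lay within the wild-type range, and the difference was 1.06 ± 0.33 (edgeR adjusted p = 0.0115). The call was lost without transgenic replicate 1 (0.91, edgeR adjusted p = 0.0502) or 2 (0.87, edgeR adjusted p = 0.0512). At 10 weeks the libraries did not overlap (2.29 to 4.19 and 4.41 to 7.43 CPM), and the difference of 0.68 ± 0.28 missed the threshold (edgeR adjusted p = 0.0652) but passed without the 55-week transgenic replicate 1 (0.69, edgeR adjusted p = 0.0379).

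The Car12 libraries of 55 weeks had 2.85, 2.07, 2.85, 2.63 and 2.58 CPM in wild type against 2.96, 0.682, 0.770, 2.35 and 1.36 CPM in transgenic mice. Transgenic replicates 2 and 3 were the lowest, and the difference was −0.65 ± 0.31 (edgeR adjusted p = 0.0711). It was −0.23 ± 0.28 without these 2 libraries, and it passed without replicate 1 (−0.99, edgeR adjusted p = 0.00634) or 4 (−0.80, edgeR adjusted p = 0.0374). The genotype difference changed by −1.33 ± 0.42 between 10 and 55 weeks (edgeR adjusted p = 0.0135) and by −1.71 ± 0.45 between 25 and 55 weeks (edgeR adjusted p = 0.00488). The first of these was −0.93 with scaling by library size alone and did not pass (edgeR adjusted p = 0.0774), and it was −1.24 without 10-week replicates 4 and 5 (edgeR adjusted p = 0.0658).

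Car8 (chromosome 4, 8143362 to 8239041, minus strand), a relative of the carbonic anhydrases that lacks the enzyme activity, was lower in transgenic libraries at 10 weeks. The wild-type libraries had 8.48, 8.70, 8.48, 8.13 and 6.13 CPM and the transgenic ones 2.46, 3.90, 5.12, 3.60 and 4.95 CPM. The groups did not overlap, and the fitted level was 1.99-fold lower (−0.99 ± 0.30, edgeR adjusted p = 0.0126). Without 10-week replicates 4 and 5 it was −1.17 and did not pass (edgeR adjusted p = 0.0501). At 25 weeks the libraries also did not overlap (5.84 to 9.11 and 2.16 to 5.79 CPM), but the difference of −0.68 ± 0.34 did not pass (edgeR adjusted p = 0.113). In wild type the libraries of 55 weeks spanned 3.95 to 6.36 CPM and the transgenic ones 6.32, 2.55, 1.77, 9.46 and 5.10 CPM. The transgenic libraries lay on both sides of the wild-type range, with a standard deviation of 3.09 CPM against 0.941 in wild type, and the difference was −0.082 ± 0.30 (edgeR adjusted p = 0.832). It was 0.36 without transgenic replicates 2 and 3 and 0.35 with scaling by library size alone, neither past the threshold (edgeR adjusted p = 0.203 and 0.328). The genotype difference changed by 0.91 ± 0.43 from 10 to 55 weeks (edgeR adjusted p = 0.0973), and the change passed without transgenic replicate 2 (1.09, edgeR adjusted p = 0.0386), replicate 3 (1.15, edgeR adjusted p = 0.0153) or both (1.35, edgeR adjusted p = 0.00136).

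**Figure D4:**
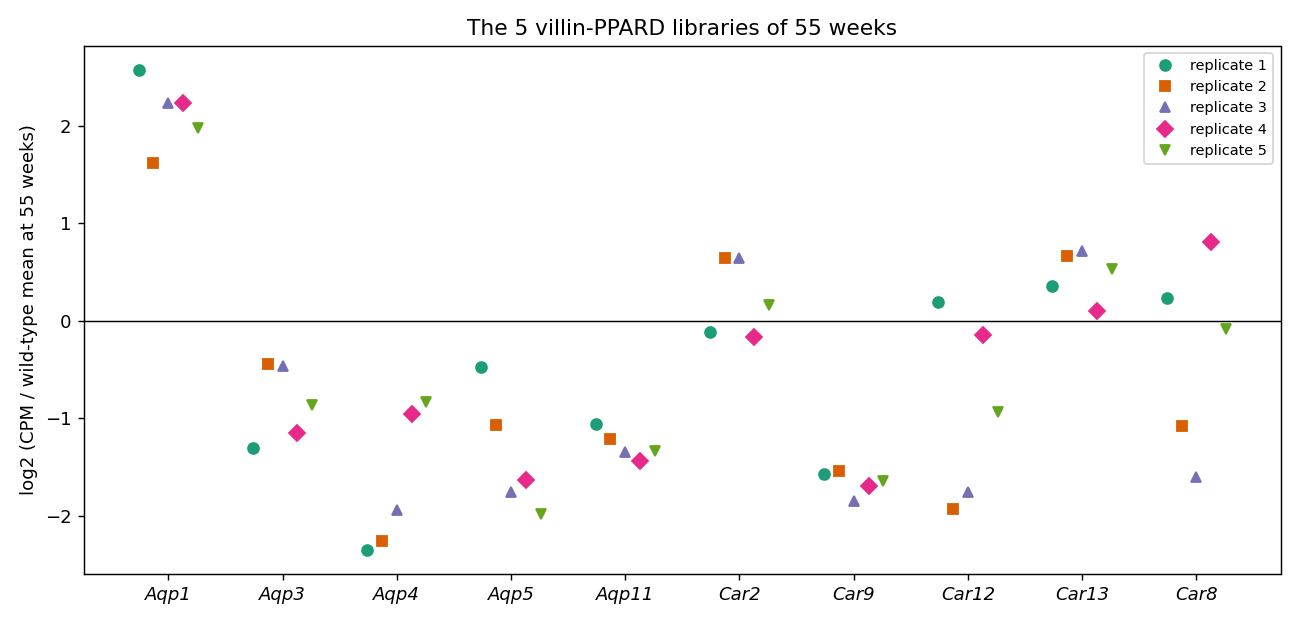
Log2 ratio of each of the 5 transgenic libraries of 55 weeks to the wild-type mean of that age (vertical axis) for the 10 genes. Replicates 2 and 3 are the highest of the 5 for Car2 (both 2175 CPM), Aqp3 and Car13 and the lowest for Car8 and Car12.

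Replicates 2 and 3 of that group were singled out as its most alike pair over the tested genes. They were the 2 highest or the 2 lowest libraries of the group for 5 of the 10 genes. The share of all genes with such an order was not counted. Of 8 intestinal markers 3 were tested at 55 weeks, of which Alpi, an alkaline phosphatase, was higher (a mean of 68.9 ± 64.6 CPM in transgenic libraries; SD, n = 5) and Muc2 (−2.87 ± 0.35) and Fabp2 (−1.50 ± 0.26) were lower. Their summed level, largely Alpi, was 111 and 177 CPM in replicates 2 and 3 and 20.0 to 35.2 CPM in the other 3 libraries, and the part of these markers in the 5 genes was not tested. Without both libraries the number of genes called at 55 weeks was 6 in place of 7 (Car13 being lost), with 8534 of 16014 genes called. Between 55 and 10 weeks within transgenic mice, 8 of the 10 genes were called (51.7% of all genes), Aqp1 higher and Aqp3, Aqp4, Aqp5, Aqp11, Car2, Car9 and Car12 lower (4302 and 3878 of all genes), and for these 8 the libraries of the 2 ages did not overlap (40.9% of all genes). Without the pair 9 were called, beside 7964 of 16014 genes, with Car8 added as higher at 55 weeks (0.78 ± 0.24, edgeR adjusted p = 0.00741).

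Of the 7 other aquaporin genes in the table, Aqp7 alone passed the count filter, and the other 6 had 0 to 25 counts summed over the 28 libraries. At 25 weeks Aqp7, an aquaglyceroporin, had a mean of 0.642 ± 0.421 CPM (SD, n = 4) in wild type and of 0.277 ± 0.112 (n = 4) in transgenic libraries, and the difference was −1.24 ± 0.46 (edgeR adjusted p = 0.0335). Of the 11 other carbonic anhydrase genes 5 were tested, of which 0, 0 and 0 were higher and 3, 3 and 4 lower at 10, 25 and 55 weeks. At 55 weeks Car5b, a mitochondrial enzyme, had a mean of 26.7 ± 1.57 CPM (SD, n = 5) in wild type and of 9.69 ± 0.708 (n = 5) in transgenic libraries, a difference of −1.46 ± 0.11. Car4, an enzyme anchored to the cell surface, had 1.90 ± 0.399 CPM in wild type at that age, with 0.210 ± 0.202 in transgenic libraries (−3.03 ± 0.39).

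The ion transporters that work beside these enzymes were followed as 2 lists. Of 11 tested bicarbonate transporters 0, 1 and 5 were higher in transgenic libraries at the 3 ages in turn, and 4, 5 and 6 were lower. Slc26a7, the chloride and bicarbonate exchanger of parietal cells, had 12.5 ± 1.43 CPM in wild type at 55 weeks against 0.490 ± 0.264 in the transgenic libraries (−4.59 ± 0.33). Cftr, a channel for chloride and bicarbonate, had 1.36 ± 0.358 and 88.3 ± 8.18 CPM there (6.02 ± 0.44). Of 9 tested proton and lactate transporters 2, 2 and 5 were higher at the 3 ages, and 0, 1 and 2 were lower. Slc9a3, an apical sodium and proton exchanger, had the turn with age seen for Aqp3 and Aqp5: it was higher at 10 weeks (0.88 ± 0.25) and lower at 55 weeks (−2.34 ± 0.28).

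Of the tested genes, 11915 reached a mean of 1 CPM and had a symbol that was not a Gm number, Rik or clone name. Those most like each of the 10 were ranked by the root mean square difference between the 6 centred group means on the log2 scale. Aqp3 was closest to Foxa3, a forkhead transcription factor (0.03), then Agpat2 and Rbm38 (both 0.05). Aqp5 was closest to Fabp4, a fatty acid binding protein (0.13), Agpat4 and Ffar4 (both 0.17), and Aqp1 to Alpl (0.11), B4galt4 and Inf2 (both 0.16). Car9 was closest to Tmem184a (0.03), Idh2 (0.05) and Pnkd (0.06), and Car2 to Wwc1 (0.07), Tcea3 and Ppfibp1 (both 0.08). Aqp4 was closest to Fam110b (0.07), Glod5 and Tbc1d24 (both 0.10), and Aqp11 to Sfxn2 (0.06), Nptxr and Acpp (both 0.07). Car12 was closest to Drd3 (0.14), Gldc and Fut4 (both 0.16), and Car8 to Cd46 (0.07), Ids and Aldh4a1 (both 0.08). Car13, whose group means spanned less than 1, was not matched.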

How the data were processed

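Polyadenylated RNA was sequenced in 28 libraries. The deposited table holds read counts per gene, made by the authors before deposit with HTSeq 0.6.1 after alignment with TopHat2 2.0.14 to mm10, per the submitters' processing notes; which annotation was counted, and whether strand was used, is not given in the sources used here. From these counts, genes were filtered with filterByExpr, scaled by TMM factors and fitted with the quasi-likelihood test of edgeR 4.0.16 (R 4.3.3, limma 3.58.1) over 28 libraries in 6 groups, with 10 contrasts and Benjamini-Hochberg adjustment over 15812 genes (threshold 0.05). Total counts of 10982888 to 30891108 per library limit the precision of genes with few counts, such as Aqp1. Errors are SD over libraries for levels and SE of the fit for log2 differences. Levels per length used the merged exons of GENCODE M21 (GRCm38), and promoters came from RefSeq (GRCm38.p6). The 10 genes and the gene lists were chosen with earlier results of these data known. Beside the 10 genes, the text names at most 4 genes per list and genotype comparison with the lowest adjusted p, and the 3 genes with the most similar group means (log2 CPM, prior count 2) of each member whose means spanned at least 1. Scripts were tested on simulated data. Alternatives were DESeq2 1.42.0, its size factors, library size alone, no filter, the compared groups alone, a replicate block, a term for library group, values within library groups, and left-out libraries.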

Additional observations from a re-analysis of the deposited data

Results flagged for a closer look

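In 60 groups of 4 or 5 libraries examined, 1 held a library far from the others: Car8 was 6.13 CPM in wild-type replicate 5 of 10 weeks, while the other 4 libraries had 8.13 to 8.70 CPM; chance gives about 1 such group in 20. The genotype difference itself changed with age in 14 tests by the interaction term of the edgeR fit. From 10 to 55 weeks the log2 change was 2.07 for Aqp1, −1.40 for Aqp3, −2.31 for Aqp5, −1.04 for Aqp11, −0.63 for Car2, −1.28 for Car9 and −1.33 for Car12. From 25 to 55 weeks it was 2.46 for Aqp1, −1.13 for Aqp3, −2.49 for Aqp5, −0.95 for Aqp11, −0.62 for Car2, −1.01 for Car9 and −1.71 for Car12. Both sets of tests use the same 55-week libraries.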

How the results depend on the processing

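Of 660 values of single genes under other settings, 615 kept their direction and their side of the threshold, 15 passed it newly, 22 no longer passed and 8 changed sign. Those of the 3 comparisons in which none of the 10 genes was called are not among them. The sign changes were Aqp1 at 10 weeks within the second library group (−0.015), Aqp1 at 25 weeks with a term for library group (0.066) and within the first library group (0.065), Car8 at 55 weeks with library size alone (0.35), Car13 with library size alone between 55 and 10 weeks in transgenic mice (0.20) and in the change from 25 to 55 weeks (0.10), and Car2 (−0.034) and Car8 (0.36) at 55 weeks without transgenic replicates 2 and 3. The last setting and the values within library groups were chosen after seeing the data. The cause was not tested.

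The number of the 10 genes called at 10 weeks was 1 within the second library group, which has 2 libraries a genotype. In wild type between 55 and 10 weeks it was 1 with no filter, 0 with a term for library group and 0 within the second library group, in place of 2. With 1 library left out at a time, the number called was 5 to 7, 4 to 6 and 7 to 9 for genotype at 10, 25 and 55 weeks, 0 to 1 in transgenic mice between 25 and 10 weeks (1 without 25-week transgenic replicate 3), 8 to 8 between 55 and 10 weeks, and 7 to 8 and 6 to 8 for the changes from 10 and from 25 to 55 weeks. Of 1960 such values of single genes 8 changed sign. They lie in the ranges of Aqp1 at 10 weeks (−0.10 to 0.26; −0.10, −0.038, −0.071 and −0.089 without wild-type replicates 1 and 2 and transgenic replicates 4 and 5), Aqp1 at 25 weeks (−0.58 to 0.069), Car8 at 55 weeks (−0.42 to 0.12; 0.065 and 0.12 without transgenic replicates 2 and 3) and Car8 between 55 and 10 weeks in transgenic mice (−0.0059 to 0.56; −0.0059 without 55-week replicate 4).

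With the replicate number as a block, the number called was 8 in place of 7 for the change from 25 to 55 weeks (Aqp4 −0.96, edgeR adjusted p = 0.0428, with 4315 of 15812 genes called) and the same in the other 9 comparisons. Same-numbered libraries of the 2 genotypes had correlations of −0.42 to 0.23, so the numbers were not taken as pairs.

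Over all genes, 5380 were called at 10 weeks, 1528 within the second library group and 3426 without replicates 4 and 5 of that age. The change from 10 to 55 weeks had 5748 and, within the second library group, 3378. Wild type between 55 and 10 weeks had 2007, 626 with a term for library group and 129 within the second. Transgenic mice between 25 and 10 weeks had 445, against 1049 (DESeq2), 914 (library size alone), 246 (no filter), 208 (library group term), 180 (first group) and 123 (without replicates 4 and 5). The change from 10 to 25 weeks had 1 (1810 at an unadjusted p under 0.05), against 45 with DESeq2, and wild type between 25 and 10 weeks had 2, against 0 to 3. Library size alone gave 4867 higher and 1665 lower genes at 25 weeks in place of 3318 and 2944, and moved the median by over 0.1 there too (0.15).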
